A study of Arabidopsis thaliana with 12 samples.

Results

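The nuclear genes described here encode enzymes of carbon fixation and of photorespiration: the small subunits of Rubisco, Rubisco activase, the remaining steps of the Calvin cycle and the photorespiratory cycle. They were listed by locus and role, with earlier results of these data known. They are 32 of the 32833 genes in the deposited table, 20 from the Calvin cycle and 12 from photorespiration. All 32 were found, and all 32 passed the filter of at least 1 FPKM in at least 3 of 12 libraries, as did 19110 genes in all. Libraries from Arabidopsis leaves represented 4 genotypes with 3 libraries each, and no treatment was given. WT is the Columbia accession Col-0, and crwn1;4, also called the double mutant, lacks CRWN1 and CRWN4, which encode coiled-coil proteins of the nuclear lamina. The genotypes crwn1;4 pnet2_a and crwn1;4 pnet2_b carry the same CRWN1 and CRWN4 knockouts together with a CRISPR allele of PNET2_A or of PNET2_B, genes for membrane proteins of the nuclear envelope, and are called the pnet2_a and pnet2_b lines. No library came from a pnet2 mutant with intact CRWN genes, and the number of independent CRISPR lines behind each genotype is not given in the sources used here. Plants were 3 weeks old by their titles but 4 weeks old by the extraction protocol, which used about 50 mg of leaf per RNA sample. The labels do not tell whether a genotype's 3 libraries came from plants grown apart, and the p-values then cover only the variation among these libraries, possibly technical.

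Rubisco joins CO2 to ribulose bisphosphate in the chloroplast stroma. Its small subunits come from a nuclear RBCS family and its large subunit from the plastid gene rbcL, and Rubisco activase frees blocked active sites. The product is reduced to triose phosphate with ATP and NADPH, and most of the triose phosphate is rearranged to regenerate the acceptor. When Rubisco takes oxygen in place of CO2 it forms phosphoglycolate, which the photorespiratory cycle recovers through chloroplasts, peroxisomes and mitochondria, where the glycine decarboxylase complex releases CO2 and ammonia. Transcripts of this set are among the most abundant in leaves, and many of them are controlled by light, sugar and the circadian clock.

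The 4 RBCS genes are near copies of each other, which bears on how their reads could be assigned, so the first 120 coding bases of each are shown 5′ to 3′. Capitals mark the 25 positions at which the 4 genes are not all alike. RBCS1A lies on the minus strand at chr1:25049130-25049249, and RBCS1B at chr5:15385036-15385155, RBCS2B at chr5:15381859-15381978 and RBCS3B at chr5:15378187-15378306 lie on the minus strand of chromosome 5, all in TAIR10.1.
RBCS1A: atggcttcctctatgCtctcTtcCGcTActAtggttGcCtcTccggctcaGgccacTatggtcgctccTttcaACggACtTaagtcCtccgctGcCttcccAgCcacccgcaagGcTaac
RBCS1B: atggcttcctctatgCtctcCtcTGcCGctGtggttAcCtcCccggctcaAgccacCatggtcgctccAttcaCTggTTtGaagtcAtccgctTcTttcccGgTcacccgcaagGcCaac
RBCS2B: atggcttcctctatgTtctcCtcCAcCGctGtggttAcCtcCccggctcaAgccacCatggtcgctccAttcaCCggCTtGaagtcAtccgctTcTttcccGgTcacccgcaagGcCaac
RBCS3B: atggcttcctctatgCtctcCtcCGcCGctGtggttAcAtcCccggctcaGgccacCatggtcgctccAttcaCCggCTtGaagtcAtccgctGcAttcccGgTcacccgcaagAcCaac
In this stretch RBCS1A differed from RBCS1B at 21 positions, from RBCS2B at 21 and from RBCS3B at 19. RBCS1B differed from RBCS2B at only 5 of the 120 positions and from RBCS3B at 8, and RBCS2B differed from RBCS3B at 7. Over the whole coding sequence RBCS1A shared 90.4% to 90.6% of its bases with the 3 linked genes, and those 3 shared 96.7% to 97.3% with each other. How reads that match several copies were assigned is not given in the sources used here, so values of single genes among the 3 linked copies are less certain than their sum.

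Upstream sequence is shown for 3 genes to display the light-response boxes that a search of this set found. Each run is the 250 bases before the annotated gene start in TAIR10.1, and capitals mark the G-box CACGTG and the I-box GATAAG or its reverse complement CTTATC. RBCS2B is read from the minus strand of chr5:15382072-15382321, HCEF1 from the plus strand of chr3:20016587-20016836 and RBCS3B from the minus strand of chr5:15378643-15378892.
RBCS2B: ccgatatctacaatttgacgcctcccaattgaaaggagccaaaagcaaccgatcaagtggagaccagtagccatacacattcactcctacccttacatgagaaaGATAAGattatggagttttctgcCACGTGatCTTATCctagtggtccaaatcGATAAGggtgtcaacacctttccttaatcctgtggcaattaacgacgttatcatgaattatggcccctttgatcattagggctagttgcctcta
HCEF1: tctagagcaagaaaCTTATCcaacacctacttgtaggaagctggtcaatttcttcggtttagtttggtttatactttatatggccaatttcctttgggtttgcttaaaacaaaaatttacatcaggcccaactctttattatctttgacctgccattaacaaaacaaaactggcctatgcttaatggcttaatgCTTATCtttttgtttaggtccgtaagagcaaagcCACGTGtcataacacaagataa
RBCS3B: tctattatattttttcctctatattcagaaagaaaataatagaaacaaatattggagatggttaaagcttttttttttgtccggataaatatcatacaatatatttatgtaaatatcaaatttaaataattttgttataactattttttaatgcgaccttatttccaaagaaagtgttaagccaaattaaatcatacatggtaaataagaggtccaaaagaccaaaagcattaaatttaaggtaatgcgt
RBCS2B held a G-box 123 bases before the start, with I-boxes at 146, 115 and 94 bases, where each distance is to the first base of the box as printed. HCEF1, the chloroplast fructose bisphosphatase gene, held a G-box at 22 bases and I-boxes at 236 and 56 bases, and the RBCS3B window held neither box. The annotated gene start is at 15378642 in RBCS3B, with its coding start at 15378306. In RBCS2B these lie at 15382071 and 15381978. The RBCS3B window thus ends further from the coding start than that of RBCS2B. So does the RBCS1A window, which also held neither box, with its gene start at 25049667 and coding start at 25049249. In every gene the bases between were not searched, so boxes there would be missed. Both strands were searched in 27443 such windows, and the G-box reads alike on both. The G-box was in 5 of the 32 windows (RBCS2B, HCEF1, PRK, GGT1 and GLDP1) against 6.49% of all windows. The I-box was in 5 of 32 (RBCS2B, HCEF1, RCA, CP12-2 and GLDP2) against 12.3%, and the GT1 box GGTTAA in 5 of 32 against 14.6%. The evening element core AATATCT was in 3 of 32 against 10.0%, the W-box core TTGAC in 14 of 32 against 44.9% and the TATA box TATAAA in 13 of 32 against 47.3%. These matches are descriptions of letters in a fixed window and were not tested against the expression values.

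Values are deposited FPKM, the fragments of a gene per kilobase of transcript, scaled to the mapped fragments of the library. Since FPKM express a gene as a share of its library, a lower level in bulk leaf can reflect fewer cells of a type or less RNA per cell, and these cannot be told apart. Library totals were 622263 to 669711 FPKM. The read depth is unknown, so no counting error can be given. Log2 values correlated at 0.9843 to 0.9885 within a genotype, across genes, which are not independent replicates. CRWN1 averaged 12.4 FPKM in WT and 1.87 in crwn1;4, and CRWN4 averaged 7.36 and 1.26 (n = 3 each). The labels give no locus for PNET2_A or PNET2_B, whose transcripts were not checked. Of the 32 genes, 9 overlap an annotated neighbour, and the strand setting of the counting is not given in the sources used here, so reads in such overlaps are uncertain. Changes below are limma log2 changes on log2(FPKM + 1) with their standard error (SE). The adjusted p is Benjamini-Hochberg over all 19110 genes, and a gene rose or fell where it was below 0.05. Over all genes the median log2 change was 0.01 in crwn1;4 against WT, 0.11 in the pnet2_a line and 0.23 in the pnet2_b line, both against crwn1;4, so a value near 0 in the pnet2 lines lies below the middle of the transcriptome. With median-ratio scaling, which centres the medians near 0 (0.01 and 0.02 in the 2 lines), the split of all genes that rose and fell moved from 4380 and 1759 to 2975 and 2772 in the pnet2_a line and from 7424 and 1650 to 3498 and 3429 in the pnet2_b line.

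Of the total FPKM of a library, the 32 genes together held 7.03 ± 0.174% in WT, 6.79 ± 0.323% in crwn1;4, 6.15 ± 0.122% in the pnet2_a line and 5.46 ± 0.182% in the pnet2_b line (mean ± SD, n = 3). By library these shares were 7.21%, 7.03% and 6.86% in WT and 7.12%, 6.76% and 6.48% in crwn1;4. They were 6.15%, 6.27% and 6.02% in the pnet2_a line and 5.61%, 5.26% and 5.51% in the pnet2_b line. The pnet2_a libraries all lay below the 6 libraries with intact PNET2 genes, the pnet2_b libraries lay below the pnet2_a libraries, and WT and crwn1;4 overlapped. A two-sided exact permutation test gave p = 0.1 for each pnet2 line against the double mutant and p = 0.3 for crwn1;4 against WT. With 3 libraries against 3 the smallest p possible is 0.1, and after adjustment over 18 such tests of shares the values were 0.138 and 0.36. The 4 RBCS genes alone held 4.20 ± 0.0754% of the total in WT, 3.80 ± 0.181%, 3.44 ± 0.0956% and 3.00 ± 0.0882% in the same order of genotypes, and the other 28 genes held 2.84 ± 0.12%, 2.99 ± 0.145%, 2.70 ± 0.0273% and 2.46 ± 0.0951%. The 12 photorespiratory genes made up 10.5 ± 0.175% of the summed FPKM of the set in WT, 11.6 ± 0.0718% in crwn1;4, 11.4 ± 0.126% in the pnet2_a line and 12.1 ± 0.0733% in the pnet2_b line, a ratio that linear scaling does not move. Every mutant library was above every WT library (exact permutation p = 0.1 each, 0.138 adjusted), and against crwn1;4 the p was 0.2 in the pnet2_a line and 0.1 in the pnet2_b line (0.257 and 0.138 adjusted). With the RBCS genes left out of the total, the same share was 26.1 ± 0.134%, 26.4 ± 0.102%, 26.0 ± 0.156% and 26.9 ± 0.204%, a total chosen after its values were seen and not tested.

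**Figure D1:**
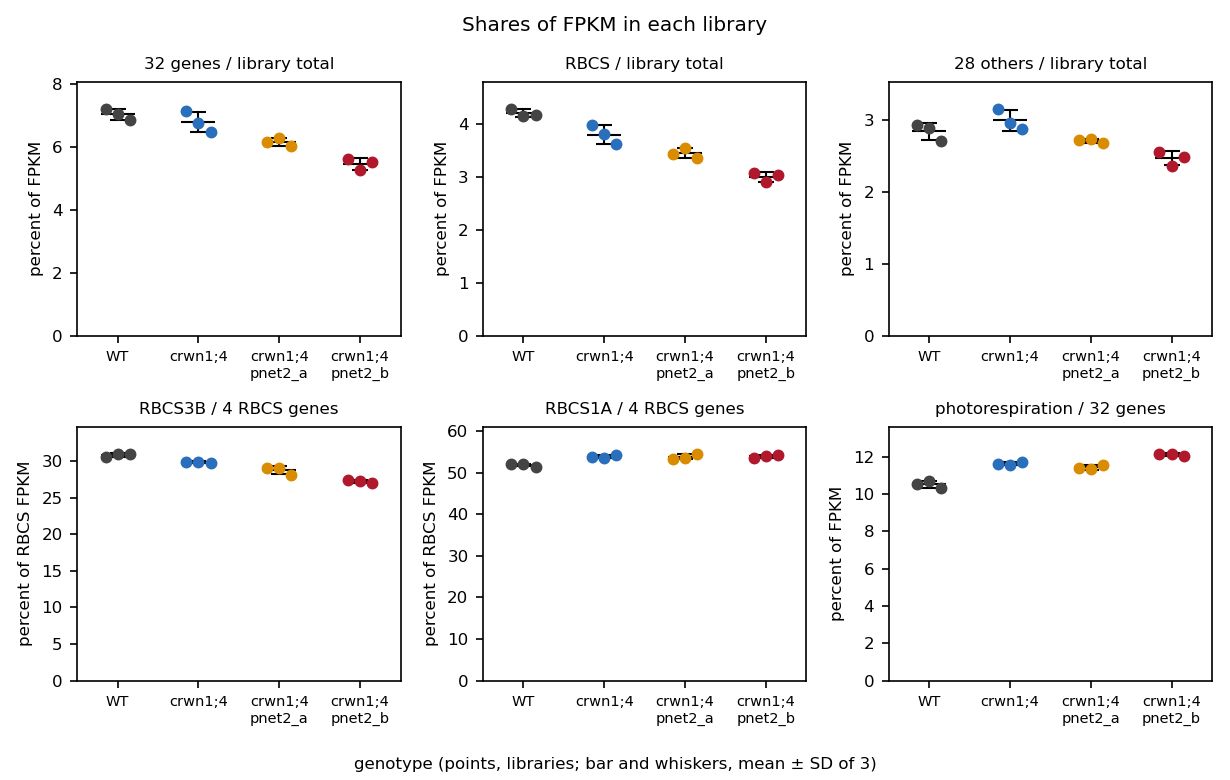
Shares of FPKM in each of the 12 libraries by genotype, in percent: points are libraries, and the bar with whiskers is the mean ± SD of 3. The share held by all 32 genes was 6.86% to 7.21% in WT and 5.26% to 5.61% in the pnet2_b line, while RBCS1A kept 53.3% to 54.6% of the RBCS total in all mutant libraries.

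Few of these transcripts passed the test between crwn1;4 and WT. In crwn1;4 against WT, 2 of 32 genes fell, RBCS1B and RBCS2B, and none rose by limma, although 8 had positive and 4 negative changes at an unadjusted p below 0.05. Over all genes 0.591% fell and 2.41% rose in this comparison by adjusted p. The share of all genes at the unadjusted threshold was not counted, so the 8 and 4 have no background beside them. The median log2 change of the 32 genes was 0.02, and their range was -0.29 to 0.22. The 8 positive ones were GAPA, FBA1, GOX1, GGT1, AGT1, HPR1, GLDP1 and GLDP2, of which 6 are photorespiratory, and their adjusted p was 0.0688 to 0.268. GOX1, a peroxisomal glycolate oxidase, came closest at 0.21 ± 0.06 (SE; adjusted p = 0.0688). The count rests on single libraries and settings: 1 gene fell without WT replicate 1, WT replicate 3 or crwn1;4 replicate 2. No gene passed without the intensity trend or in a fit of these 2 genotypes alone, and quantile normalization gave 2 falls and 2 rises.

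Most of the set was lower in the pnet2 lines than in crwn1;4. In the pnet2_a line against the double mutant, 17 of 32 genes fell and none rose by limma, with 19 falls and 0 rises at an unadjusted p below 0.05. Over all genes 9.2% fell and 22.9% rose by adjusted p, and the share at the unadjusted threshold was not counted. In the pnet2_b line against the double mutant, 24 of 32 fell and 1 rose, GLDP2, where 8.63% of all genes fell and 38.8% rose. Changes ran from -0.32 to 0.01 with a median of -0.16 in the pnet2_a line and from -0.60 to 0.22 with a median of -0.28 in the pnet2_b line. All 3 pnet2_a libraries lay below all 3 crwn1;4 libraries for 20 of the 32 genes, which held for 14.1% of all genes, and the pnet2_b libraries did so for 25 of the 32 against 11.1% of all genes. Both comparisons use the same crwn1;4 libraries and are therefore not independent of each other. Falls numbered 14 and 22 with rescaling to a common total (TPM), 22 and 30 with median-ratio scaling, and 11 and 17 with quantile normalization, which also gave 2 and 4 rises. The pnet2_a count was 10 without the intensity trend, 9 without crwn1;4 replicate 1, 11 without pnet2_a replicate 1 and 10 without pnet2_a replicate 3. Without crwn1;4 replicate 1 the pnet2_a calls of RBCS1A, TIM, FBA2, PRK, GLYK, GOX1, GGT1 and GLDT were lost. In the pnet2_b line, calls that rested on single libraries were those of CP12-1 (pnet2_b replicate 1), CP12-2 (crwn1;4 replicate 2 or 3, pnet2_b replicate 1 or 3), GOX1 (crwn1;4 replicate 1, pnet2_b replicate 2 or 3), GLDH1 and GLDP2.

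**Figure D2:**
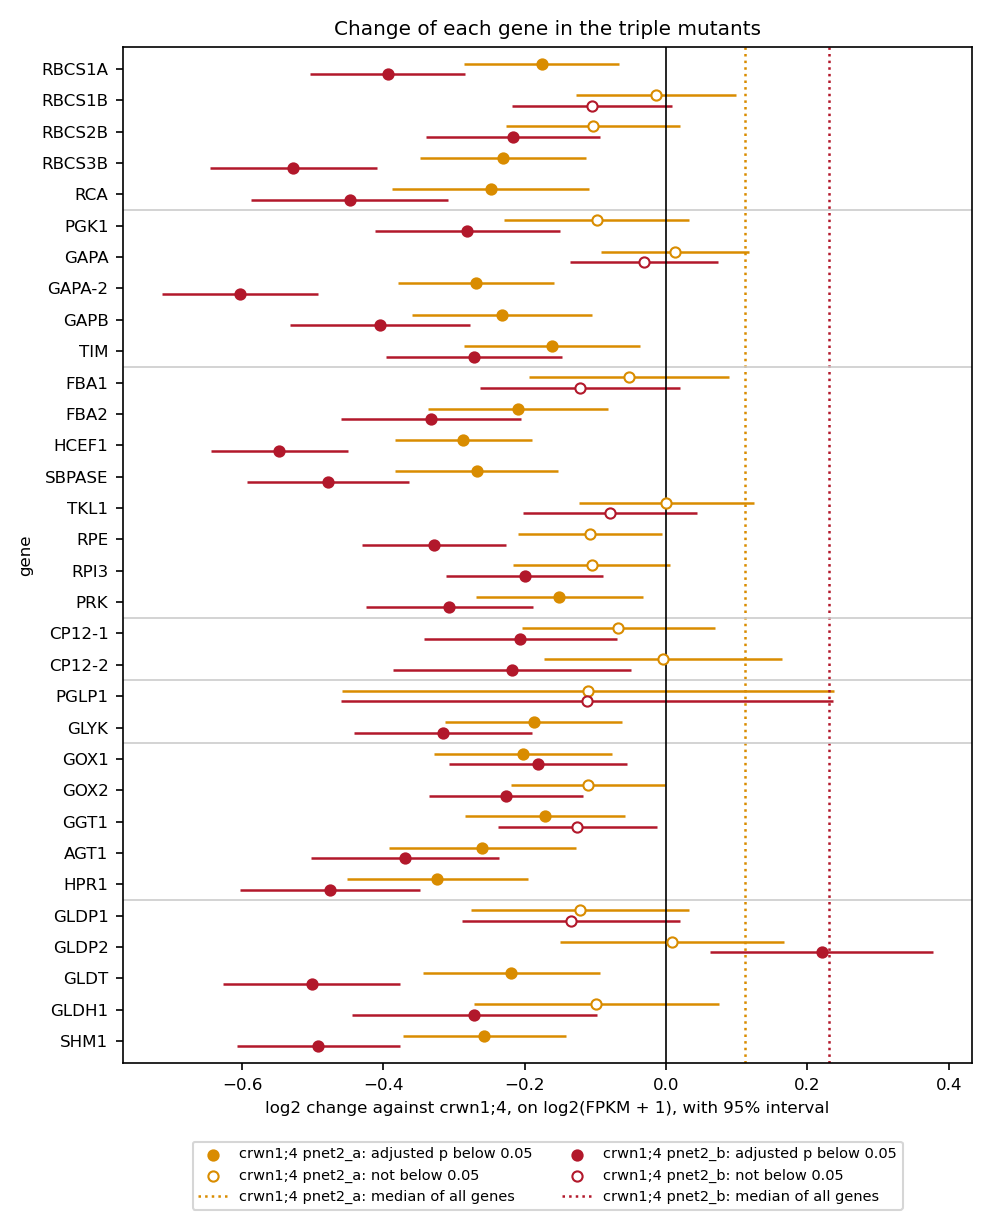
Limma log2 change of each of the 32 genes against crwn1;4 on log2(FPKM + 1), with 95% intervals, for the pnet2_a line (orange) and the pnet2_b line (red): filled points had an adjusted p below 0.05, grey rules separate the roles, and dotted lines are the medians of all genes (0.11 and 0.23). Filled points lie left of 0 except GLDP2 in the pnet2_b line, whose sign turns with median-ratio scaling, and those of RBCS2B and RCA turn with quantile normalization.

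Of the 5 Rubisco genes, 3 fell in the pnet2_a line (RBCS1A, RBCS3B, RCA) and 4 in the pnet2_b line (also RBCS2B), both against crwn1;4. RBCS1A (AT1G67090, chromosome 1, 25048158 to 25049667 in TAIR10.1) had the highest level of the set. It measured 14290.0, 13919 and 14339 FPKM in WT, 13918, 13239.5 and 12648 in crwn1;4, 11482, 12153 and 11584 in the pnet2_a line and 10224, 9807 and 10249 in the pnet2_b line. No pair of genotypes overlapped, although the lowest WT library and the highest crwn1;4 library were nearly level. The log2 change was -0.18 ± 0.05 (adjusted p = 0.0169) in the pnet2_a line and -0.39 ± 0.05 (adjusted p = 2.97e-05) in the pnet2_b line. RBCS3B (AT5G38410, chromosome 5, 15376988 to 15378642) measured 8397, 8307 and 8615 FPKM in WT, 7739, 7405 and 6941 in crwn1;4, 6248, 6599 and 5973 in the pnet2_a line and 5245, 4969 and 5094 in the pnet2_b line. Its 4 genotypes did not overlap, and the pnet2_b mean was 60.5% of WT. It fell by 0.23 ± 0.05 (adjusted p = 0.00539) and 0.53 ± 0.05 (adjusted p = 3.81e-06) on the log2 scale in the 2 lines against the double mutant.

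RBCS1B and RBCS2B were the members that passed between crwn1;4 and WT, although all 4 RBCS genes were lower there without overlap. No other gene of the set was lower without overlap in that comparison. In the other direction, 8 were higher without overlap: GAPA, FBA1, GOX1, GOX2, GGT1, HPR1, GLDP1 and GLDP2. Among all genes, 7.99% were lower and 11.8% higher without overlap there. RBCS1A was at 93.6% and RBCS3B at 87.2% of WT in crwn1;4 (adjusted p = 0.35 and 0.069). RBCS1B (AT5G38430, chromosome 5, 15383167 to 15385320) measured 1619.7, 1496 and 1610.3 FPKM in WT, 1332, 1324 and 1222 in crwn1;4, 1285, 1312 and 1241 in the pnet2_a line and 1234, 1167 and 1205 in the pnet2_b line. WT stood above every mutant library, whereas crwn1;4 overlapped both pnet2 lines. It fell by 0.29 ± 0.05 in crwn1;4 against WT (adjusted p = 0.00864), while its changes against crwn1;4 were -0.01 in the pnet2_a line (95% interval -0.13 to 0.10) and -0.10 in the pnet2_b line (-0.22 to 0.01). RBCS2B (AT5G38420, chromosome 5, 15380907 to 15382071) measured 3193, 3061 and 3294 FPKM in WT, 2860.0, 2759 and 2518 in crwn1;4, 2515, 2613 and 2437 in the pnet2_a line and 2428, 2243 and 2325 in the pnet2_b line. It changed by -0.23 ± 0.06 in crwn1;4 against WT (adjusted p = 0.0441), a call lost in 10 of 17 alternatives, and by -0.22 ± 0.06 in the pnet2_b line against the double mutant (adjusted p = 0.00692). Under quantile normalization RBCS2B turned to 0.39 and RBCS1B to 0.21 in the pnet2_b line against the double mutant. RBCS1A held rank 2 and RBCS3B rank 5 in every library, so that normalization, which gives each rank 1 common value, sets their differences to 0 by construction.

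The make-up of the RBCS pool is a ratio inside a library that no linear scaling moves. RBCS1A was 51.8 ± 0.287% of summed RBCS FPKM in WT and 53.9 ± 0.338%, 53.8 ± 0.643% and 53.9 ± 0.433% in crwn1;4 and the pnet2 lines, with every mutant library above every WT library. The exact permutation p was 0.1, the smallest possible, for each mutant against WT (0.138 adjusted) and 1 for each pnet2 line against the double mutant. RBCS3B made up 30.8 ± 0.256%, 29.9 ± 0.111%, 28.8 ± 0.539% and 27.2 ± 0.222% in WT, crwn1;4, pnet2_a and pnet2_b. RBCS1B made up 5.75 ± 0.155%, 5.25 ± 0.101%, 5.87 ± 0.0931% and 6.42 ± 0.0336% in the same order. These last shares were picked after their values were seen and carry no test.

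RCA (AT2G39730), encoding Rubisco activase, measured 3688, 3641 and 3434 FPKM in WT, 4194, 3849 and 3630.3 in crwn1;4, 3312, 3339.8 and 3161 in the pnet2_a line and 3017, 2625 and 2914 in the pnet2_b line. WT and crwn1;4 overlapped, and the pnet2 lines lay below both and did not overlap each other. RCA fell by 0.25 ± 0.06 (adjusted p = 0.00938) and 0.45 ± 0.06 (adjusted p = 7.93e-05) in the 2 lines against the double mutant, but turned to 0.08 and 0.25 under quantile normalization. The plastid gene rbcL (ATCG00490) was at only 9.002 ± 0.334 FPKM in WT, 7.32 ± 0.606 in crwn1;4, 5.35 ± 0.468 in the pnet2_a line and 6.39 ± 0.318 in the pnet2_b line, and it fell in the pnet2_a line against the double mutant (-0.39, adjusted p = 0.00724). Plastid transcripts largely lack the long poly(A) tails that messenger RNA libraries select, so this is no measure of the large subunit's true level.

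**Figure D3:**
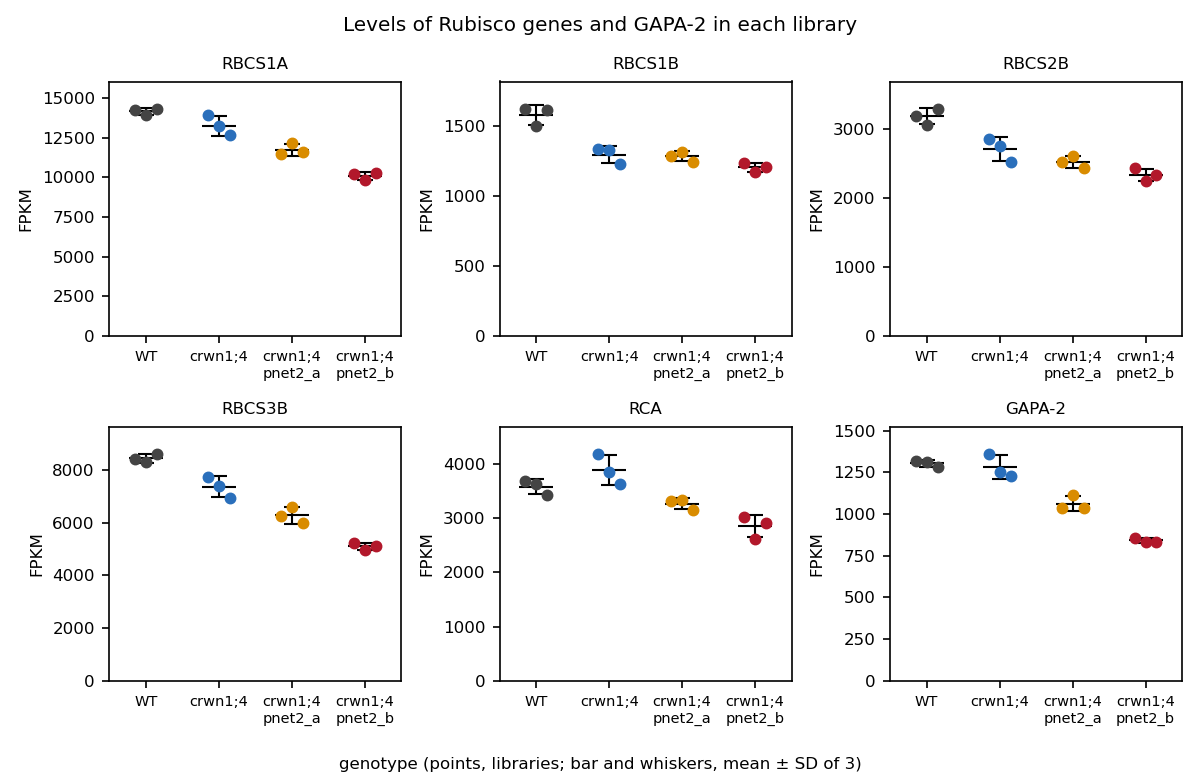
Level in FPKM of the 4 RBCS genes, RCA and GAPA-2 in each library by genotype, each panel starting at 0: points are libraries, and the bar with whiskers is the mean ± SD of 3. All 4 RBCS genes are lower in crwn1;4 than in WT without overlap, as are 7.99% of all genes, and RBCS1B and RBCS2B passed the test. Of the whole set, 8 genes are higher there without overlap, as are 11.8% of all genes. RCA and GAPA-2 overlap there and are lower in the pnet2 lines on the deposited scale. The signs of RCA and RBCS2B in the pnet2 lines against crwn1;4 turn with quantile normalization.

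Of the 5 reduction genes, 3 fell in the pnet2_a line and 4 in the pnet2_b line. The chloroplast glyceraldehyde phosphate dehydrogenase, which spends the NADPH of the cycle, has A subunits encoded by GAPA and GAPA-2 and a B subunit encoded by GAPB. GAPA-2 (AT1G12900, chromosome 1, 4392438 to 4394454) measured 1317, 1314 and 1281 FPKM in WT, 1363, 1253 and 1228 in crwn1;4, 1037, 1113 and 1036 in the pnet2_a line and 857, 834 and 835 in the pnet2_b line. WT and crwn1;4 overlapped and each pnet2 line stood clear of every other genotype. It fell by 0.27 ± 0.05 (adjusted p = 0.00116) and 0.60 ± 0.05 (adjusted p = 6.47e-07) on the log2 scale, the latter being the lowest change of the 32 in the pnet2_b line. Under quantile normalization the pnet2_a change was -0.06 (adjusted p = 0.42) and no longer passed, and the pnet2_b change was -0.35 (adjusted p = 0.000183). GAPA (AT3G26650) instead measured 888, 898 and 869 FPKM in WT, 1007, 936 and 925 in crwn1;4, 927, 975 and 989 in the pnet2_a line and 953, 925 and 926 in the pnet2_b line. All mutants lay above WT and overlapped each other, and the changes against crwn1;4 were 0.01 (95% interval -0.09 to 0.12) and -0.03 (-0.14 to 0.07), the second turning to 0.18 under quantile normalization. The GAPA-2 to GAPA ratio was therefore 1.47 ± 0.00942 in WT, 1.34 ± 0.0132 in crwn1;4, 1.103 ± 0.0487 in the pnet2_a line and 0.901 ± 0.00181 in the pnet2_b line, with no overlap. The coding sequences share 85.8% of their bases, GAPA overlaps AT3G26640 on the same strand, and the ratio was chosen after its values were seen.

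GAPB (AT1G42970) fell by 0.23 ± 0.06 (adjusted p = 0.00855) and 0.40 ± 0.06 (adjusted p = 9.17e-05), from 1076 ± 83.5 FPKM in crwn1;4 to 914 ± 21.7 and 811 ± 26.3, but did not pass in the pnet2_a line under quantile normalization (-0.11, adjusted p = 0.151). TIM, the plastid triose phosphate isomerase gene, fell to 89.3% and 82.7% of the double mutant (adjusted p = 0.0473 and 0.00169), but its pnet2_a call was lost in 9 of 17 alternatives (adjusted p up to 0.2), among them those without any 1 of the pnet2_a libraries. PGK1, a chloroplast phosphoglycerate kinase gene, fell in the pnet2_b line to 82.3% (adjusted p = 0.00184), and its pnet2_a value of 93.3% did not pass (adjusted p = 0.241).

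Among the 8 regeneration genes, 4 fell in the pnet2_a line (FBA2, HCEF1, SBPASE, PRK) and 6 in the pnet2_b line (also RPE and RPI3). The committed phosphatases were low in every library of both lines. HCEF1 (AT3G54050), the chloroplast fructose bisphosphatase gene whose upstream window is printed above, measured 499, 524 and 503 FPKM in WT, 535, 506 and 509.6 in crwn1;4, 421, 423 and 426 in the pnet2_a line and 356, 349.7 and 355 in the pnet2_b line. Its SD was only 2.9 and 3.19 FPKM in the 2 lines, and neither line overlapped another genotype. It fell by 0.29 ± 0.05 (adjusted p = 0.000253) and 0.55 ± 0.05 (adjusted p = 4.71e-07). SBPASE (AT3G55800), for sedoheptulose bisphosphatase, measured 471, 466 and 451 FPKM in WT, 490.1, 463 and 438 in crwn1;4, 372, 398 and 383 in the pnet2_a line and 345, 324 and 327 in the pnet2_b line. It fell by 0.27 ± 0.05 (adjusted p = 0.00157) and 0.48 ± 0.05 (adjusted p = 7.6e-06). HCEF1 and SBPASE passed in both lines under every alternative run, as did HPR1, AGT1 and SHM1, described further on.

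PRK, for the phosphoribulokinase that makes the CO2 acceptor, stood at 90.0% and 80.8% of the double mutant, with adjusted p = 0.0493 and 0.000457. Its pnet2_a call was lost in 12 of 17 alternatives (adjusted p up to 0.202), among them those without any 1 of the pnet2_a libraries. RPE, for ribulose phosphate epimerase, and RPI3, for ribose phosphate isomerase, fell in the pnet2_b line to 79.6% and 87.0% (adjusted p = 7.99e-05 and 0.00594). Among plastid aldolase genes, FBA2 (AT4G38970) fell to 86.4% and 79.4% of the double mutant (adjusted p = 0.015 and 0.000449), but passed in neither line under quantile normalization (-0.14 and -0.07, adjusted p = 0.0629 and 0.336). FBA1 (AT2G21330) was at 96.4% and 92.1%, with log2 intervals of -0.19 to 0.09 and -0.26 to 0.02, and the difference between the 2 genes was not tested. TKL1, the main plastid transketolase gene, measured 519 ± 23.6 FPKM in WT, 547 ± 30.0 in crwn1;4, 546 ± 6.05 in the pnet2_a line and 517 ± 28.9 in the pnet2_b line, with log2 changes of 0.00 (-0.12 to 0.12) and -0.08 (-0.20 to 0.04). CP12-1 and CP12-2 encode small proteins that hold the dehydrogenase and phosphoribulokinase inactive in the dark. Both fell in the pnet2_b line, to 86.7% and 85.9% of the double mutant (adjusted p = 0.0165 and 0.0336), and neither passed in the pnet2_a line at 95.4% and 99.8% (adjusted p = 0.452 and 0.973).

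**Figure D4:**
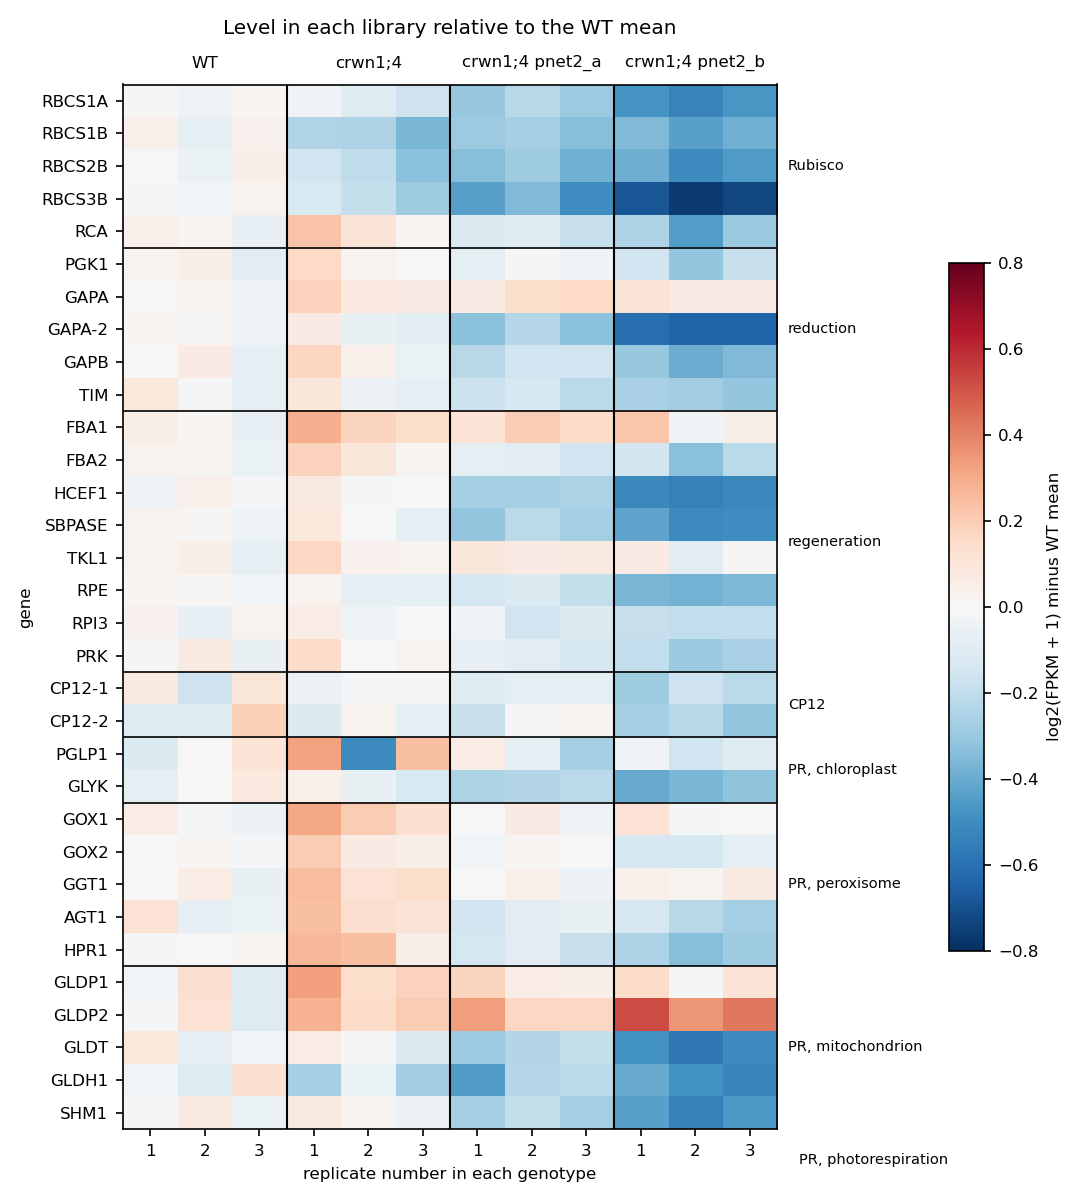
Level of each of the 32 genes in each library as log2(FPKM + 1) minus the WT mean of that gene, red above and blue below, with columns grouped by genotype and rows by role (PR, photorespiration). Most rows darken to blue from the pnet2_a to the pnet2_b columns on the deposited scale, GLDP2 is redder, and crwn1;4 replicate 2 is the lone blue cell of PGLP1 in that genotype.

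Of the 12 photorespiratory genes, 7 fell in the pnet2_a line and 8 fell and 1 rose in the pnet2_b line against the double mutant. The cycle opens in the chloroplast with phosphoglycolate phosphatase. PGLP1 (AT5G36700) measured 126, 70.2 and 119 FPKM in crwn1;4, a spread unlike any other gene of the set, and did not pass in either line. PGLP1B (AT5G36790), on the same chromosome, has an identical coding sequence, so reads from the 2 cannot be told apart there. Their sum was 252, 237 and 241 FPKM in crwn1;4, 245, 242 and 233 in WT, 207, 216 and 210 in the pnet2_a line and 198, 181 and 190 in the pnet2_b line. The sum thus showed no such spread and was lower in both pnet2 lines without overlap. Of all genes, 14.1% and 11.1% were lower than crwn1;4 without overlap in the 2 lines. The sum was not among the quantities chosen for testing and carries no test. GLYK, for the glycerate kinase that returns carbon to the Calvin cycle, fell to 87.6% and 80.1% of the double mutant (adjusted p = 0.0247 and 0.000593).

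In peroxisomes 4 of 5 genes fell in each line. HPR1 (AT1G68010), for hydroxypyruvate reductase, measured 313, 316 and 319 FPKM in WT, 380.1, 374 and 327 in crwn1;4, 286, 298 and 278 in the pnet2_a line and 266, 249.6 and 259 in the pnet2_b line. Every crwn1;4 library lay above WT and every pnet2 library below it. HPR1 had the lowest change of the 32 in the pnet2_a line, at -0.32 ± 0.06 (adjusted p = 0.000869), and fell by 0.48 ± 0.06 in the pnet2_b line (adjusted p = 2.15e-05). AGT1, for serine glyoxylate aminotransferase, fell to 83.4% and 77.4% of the double mutant (adjusted p = 0.00525 and 0.000263). GOX1 (AT3G14420) measured 562, 536 and 522 FPKM in WT, 669, 620.2 and 589 in crwn1;4, 538, 565 and 528 in the pnet2_a line and 584, 533 and 539.6 in the pnet2_b line. Both pnet2 lines overlapped WT and lay below crwn1;4, and GOX1 fell by 0.20 ± 0.06 and 0.18 ± 0.06 (adjusted p = 0.0171 and 0.0209). GOX2, adjacent to GOX1 and 92.0% identical in coding sequence, fell in the pnet2_b line to 85.4% (adjusted p = 0.00234). GGT1, for glutamate glyoxylate aminotransferase, fell in the pnet2_a line to 88.7% (adjusted p = 0.0226) and missed the threshold in the pnet2_b line at 91.6% (adjusted p = 0.0638). Against WT instead of crwn1;4, none of these 5 passed by limma in the pnet2_a line, where 1 was lower at an unadjusted p below 0.05, and 2 fell in the pnet2_b line, HPR1 and AGT1.

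In mitochondria, glycine decarboxylase needs P, T, H and L proteins in concert with serine hydroxymethyltransferase. The T-protein gene GLDT (AT1G11860) measured 524, 472 and 487 FPKM in WT, 516, 491 and 457 in crwn1;4, 404, 419.6 and 433 in the pnet2_a line and 353, 332 and 347 in the pnet2_b line. Neither line overlapped the others, and GLDT fell by 0.22 ± 0.06 and 0.50 ± 0.06 (adjusted p = 0.0107 and 1.12e-05). SHM1 (AT4G37930), the main leaf serine hydroxymethyltransferase gene, fell to 83.6% and 71.1% of the double mutant (adjusted p = 0.00218 and 6.07e-06). The H-protein gene GLDH1 fell in the pnet2_b line to 82.7% (adjusted p = 0.0133) but not without crwn1;4 replicate 2 or pnet2_b replicate 3 (adjusted p up to 0.0682).

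The P-protein genes behaved differently from each other. GLDP1 (AT4G33010) measured 247, 274 and 234 FPKM in WT, 316, 277 and 285 in crwn1;4, 284, 262 and 260.1 in the pnet2_a line and 279, 249.8 and 271 in the pnet2_b line. Its changes against crwn1;4 were -0.12 (-0.28 to 0.03) and -0.13 (-0.29 to 0.02). GLDP2 (AT2G26080) measured 60.1, 65.8 and 56.6 FPKM in WT, 73.9, 67.4 and 70.1 in crwn1;4, 76.6, 68.2 and 68.1 in the pnet2_a line and 87.6, 77.8 and 81.5 in the pnet2_b line. The pnet2_b libraries lay above all others, and GLDP2 rose by 0.22 ± 0.07 in that line against the double mutant (adjusted p = 0.0243), which is close to the 0.23 median of all genes and became -0.03 with median-ratio scaling. That rise did not pass without crwn1;4 replicate 2 or 3 or pnet2_b replicate 1 or 3. Inside a library the GLDP2 to GLDP1 ratio was 0.242 ± 0.00187 in WT, 0.241 ± 0.00634 in crwn1;4, 0.264 ± 0.00501 in the pnet2_a line and 0.309 ± 0.00727 in the pnet2_b line, a ratio chosen after its values were seen.

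Against WT, where each log2 change is by construction the sum of both steps, the counts were similar. In the pnet2_a line 14 of 32 genes fell and 1 rose, GLDP2, while 10.5% of all genes fell and 25.4% rose. In the pnet2_b line 23 fell and 1 rose, again GLDP2, while 9.25% of all genes fell and 38.4% rose. All 5 Rubisco genes fell in the pnet2_b line and 4 in the pnet2_a line, RCA being the exception (-0.13, adjusted p = 0.128). The RBCS falls in the pnet2_b line were 0.49 for RBCS1A, 0.39 for RBCS1B, 0.45 for RBCS2B and 0.73 for RBCS3B on the log2 scale, with 0.05 or 0.06 SE, but quantile normalization gave 0.23 for RBCS2B and 0.35 for RCA. GAPA, FBA1, TKL1, PGLP1, GOX1, GOX2, GGT1 and GLDP1 passed in neither direction in the pnet2_b line, and their changes were -0.12 to 0.08.

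The pnet2 lines were also compared with each other. In the pnet2_b line against the pnet2_a line, 7 of 32 genes fell and none rose by limma, with 17 falls and 1 rise at an unadjusted p below 0.05. Of all genes, 0.754% fell and 2.12% rose by adjusted p, and the share at the unadjusted threshold was not counted. The median change was -0.13 for the 32 genes and 0.12 for all. The 7 were GAPA-2 (-0.33 ± 0.05, adjusted p = 0.00468), RBCS3B (-0.30 ± 0.05, adjusted p = 0.0126), GLDT (-0.28 ± 0.06, adjusted p = 0.0234), HCEF1, SHM1, RPE and RBCS1A, the last at -0.22 ± 0.05 (adjusted p = 0.0379). The count was 11 with median-ratio scaling and 0 without the intensity trend. It was 4, 2 or 3 without pnet2_a replicate 1, 2 or 3, and 3, 2 or 2 without pnet2_b replicate 1, 2 or 3.

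Other genes of the same pathways and their cytosolic counterparts were counted from lists chosen with earlier results of these data known. For comparison with these and the later list counts, 22.9% of all genes rose and 9.2% fell in the pnet2_a line against the double mutant. In the pnet2_b line 38.8% rose and 8.63% fell. Of 9 further genes for Calvin cycle steps and export, of which the ribose phosphate isomerase genes RPI1 and RPI2 are known as cytosolic, 4 rose and 2 fell in the pnet2_a line and 3 rose and 3 fell in the pnet2_b line against the double mutant. The risers included low-level isoforms, among them RPI1 at 6.52 ± 0.763 FPKM in crwn1;4 against 10.9 ± 1.37 and 12.9 ± 0.548, and the aldolase FBA3 at 51.4 ± 0.873 against 69.5 ± 3.10 and 73.0 ± 1.36. TPT, the triose phosphate exporter, had 759.7 ± 46.8 FPKM in the double mutant and fell in the pnet2_b line to 601 ± 15.8 (adjusted p = 0.000486). Of 10 Rubisco assembly factors and chaperonins, 3 fell in each line and 1 rose in the pnet2_b line. RAF2, an assembly factor, fell in both (-0.26 and -0.32, adjusted p = 0.00499 and 0.000653), and RBCX1 fell in the pnet2_b line from 102 ± 5.92 to 72.6 ± 5.35 FPKM.

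Of 21 further photorespiratory genes, 2 rose and 6 fell in the pnet2_a line and 5 rose and 9 fell in the pnet2_b line against the double mutant. GS2, the plastid glutamine synthetase that takes up the released ammonia, had 788 ± 42.2 FPKM in the double mutant and fell to 649 ± 25.0 and 565 ± 45.9 (adjusted p = 0.00383 and 3.48e-05). PLGG1, the plastid glycolate and glycerate transporter, fell by 0.30 and 0.44, and PMDH2, a peroxisomal malate dehydrogenase, by 0.35 and 0.41. LPD2, a mitochondrial lipoamide dehydrogenase that serves as L protein, rose by 0.57 and 0.64 from 29.5 ± 1.99 FPKM. More abundant genes of these families went otherwise and were also singled out after their values were seen. The H-protein gene GLDH3 had 412 FPKM in the double mutant and was lower without overlap at 347 and 306. LPD1 had 130 FPKM there, overlapped it at 139 in the pnet2_a line and was lower without overlap at 115 in the pnet2_b line. Of the other genes singled out after their values were seen, GLDH2, a further H-protein gene at 20.6 FPKM in the double mutant, rose in the pnet2_b line by 0.64 (adjusted p = 8.585e-05). Catalase CAT2 fell in the pnet2_a line by 0.58 (adjusted p = 0.0004815). CAT2 averaged 163 FPKM in WT, 219 in crwn1;4, 146 in the pnet2_a line and 187 in the pnet2_b line. It rose in crwn1;4 against WT (0.42, adjusted p = 0.0343), the pnet2_a libraries overlapped WT, and in the pnet2_b line it overlapped crwn1;4 and did not pass (-0.23, adjusted p = 0.0681).

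Most cytosolic counterparts were higher in the pnet2 lines on the deposited scale. Of 7 genes for cytosolic isozymes, 5 rose in the pnet2_a line and 6 in the pnet2_b line against the double mutant. Over all genes 22.9% and 38.8% rose there. None of the 7 fell by limma at either an adjusted or an unadjusted threshold. GAPC1, a cytosolic glyceraldehyde phosphate dehydrogenase of glycolysis, had 282 ± 4.93 FPKM in the double mutant and rose to 397 ± 10.4 and 439.8 ± 14.6 (0.49 and 0.64, adjusted p = 6.93e-06 and 3.34e-07). PGK3, FBA8 and FBA6 rose by 0.24, 0.30 and 0.41 in the pnet2_a line and by 0.38, 0.36 and 0.31 in the pnet2_b line. With TPM, median-ratio or quantile scaling these 4 genes kept a positive sign in both lines, but with median-ratio scaling PGK3 no longer passed in the pnet2_a line (0.13, adjusted p = 0.103) and PGK3, FBA8 and FBA6 no longer passed in the pnet2_b line (0.13, 0.12 and 0.07, adjusted p = 0.0771, 0.131 and 0.454). Since ratios inside a library do not depend on linear scaling, plastid genes were set over their cytosolic counterparts. The summed FPKM of GAPA, GAPA-2 and GAPB was 5.14 ± 0.175 times that of GAPC1 and GAPC2 in WT, 4.87 ± 0.303 times in crwn1;4, 3.47 ± 0.0665 times in the pnet2_a line and 2.87 ± 0.0487 times in the pnet2_b line. PGK1 over PGK3 was 6.30, 6.17, 4.86 and 3.89 in the same order, FBA2 over FBA8 was 8.88, 9.26, 6.50 and 5.71, and plastid TIM over the cytosolic isomerase was 1.03, 0.939, 0.772 and 0.706. Each of these ratios was lower in all 6 pnet2 libraries than in all 6 others. They were chosen after their values were seen and carry no test.

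**Figure D5:**
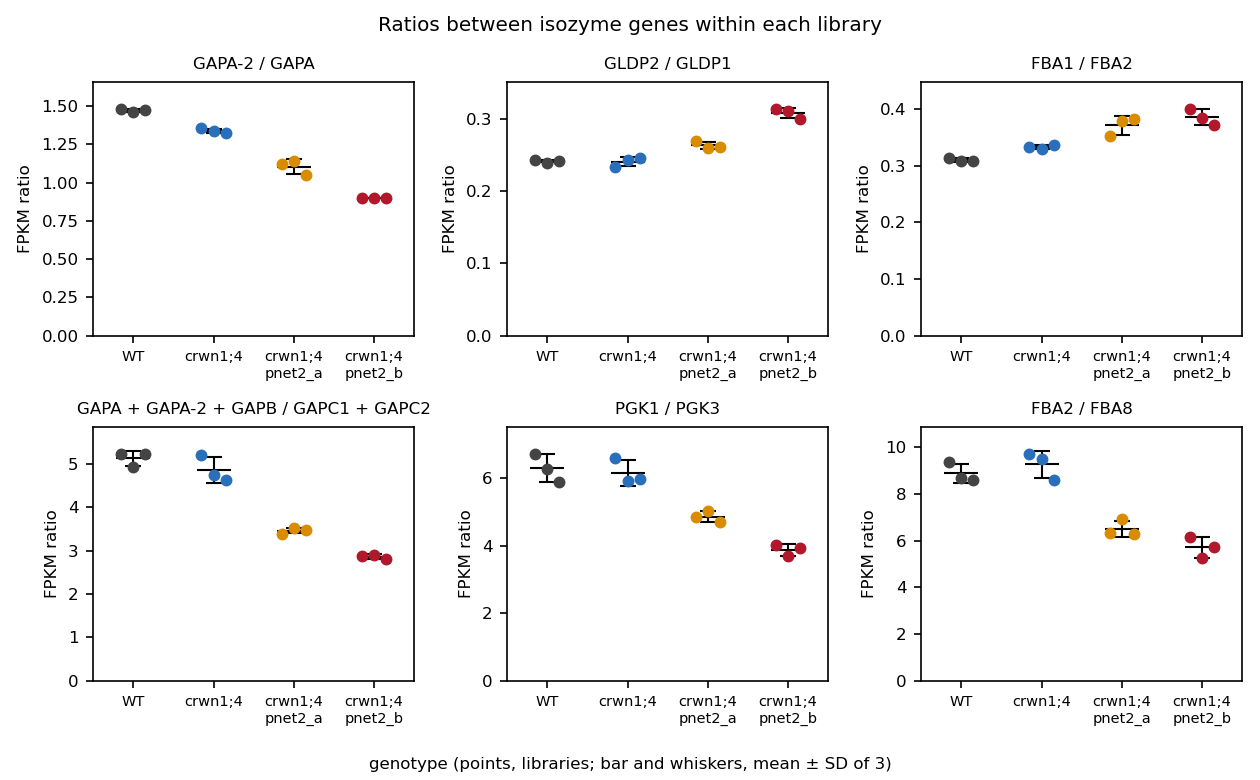
Ratio of FPKM between isozyme genes inside each library by genotype, each panel starting at 0: points are libraries, and the bar with whiskers is the mean ± SD of 3. GAPA-2 over GAPA was 1.46 to 1.48 in WT and 0.899 to 0.902 in the pnet2_b line, and the plastid to cytosolic ratios of the lower row were lower in every pnet2 library than in every WT and crwn1;4 library.

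Other measurements moved with these genes, and their part in the results was not tested. All 3 salicylic acid response genes of the list rose in crwn1;4 against WT and again in both pnet2 lines. Their summed level was 14.8 to 23.3 FPKM in WT, 77.0 to 196 in crwn1;4, 936 to 1256 in the pnet2_a line and 1010 to 1399 in the pnet2_b line, and PR1 alone rose by 3.85 and 3.96 against crwn1;4. Of 7 senescence genes, 6 rose in each line, with summed levels of 59.8 to 67.3 FPKM in crwn1;4 against 120 to 142 and 131 to 138. The late marker SAG12 was listed at 0 in all 3 WT libraries and had 4.54 ± 3.07 and 7.58 ± 1.95 FPKM in the 2 lines. Of 9 clock genes, 4 rose and 2 fell in the pnet2_a line and 5 rose and 2 fell in the pnet2_b line, both against the double mutant. Over all genes 22.9% and 38.8% rose there, and 9.2% and 8.63% fell. TOC1, an evening gene, rose by 0.67 and 0.87, ELF4 by 0.87 and 1.13, LUX by 0.57 and 0.67 and PRR5 by 0.40 and 0.54. The lowest changes in the clock list were -0.45 and -0.52 in the 2 lines. The harvest times of the plants are not given in the labels. Of 6 genes induced by sugar starvation or darkness, 5 were tested, and 3 fell in the pnet2_a line and 1 in the pnet2_b line, led by SEN1 (-2.36 and -1.32). The gene not tested, DIN2, was listed at 0 in all 6 WT and crwn1;4 libraries, and at 0.728, 2.96 and 0.724 FPKM in the pnet2_a line and 0.319, 2.03 and 0.873 in the pnet2_b line.

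Marker lists of leaf cell types were also read. Summed guard-cell markers were 134 to 139 FPKM in WT, 92.9 to 107 in crwn1;4, 69.7 to 79.6 in the pnet2_a line and 60.1 to 72.4 in the pnet2_b line, and 3 of 5 fell in each line against the double mutant (GC1, KAT1 and MYB60). In the pnet2_b line 1 of the 5 was higher than in the double mutant by limma at an unadjusted p below 0.05. Summed epidermal markers were 1352 to 1504 FPKM in WT, 1626 to 1719 in crwn1;4, 1492 to 1660 in the pnet2_a line and 1616 to 1688 in the pnet2_b line. Of those 5, ATML1 and PDF1 fell in the pnet2_a line and none passed in the pnet2_b line by limma, where 2 were lower at an unadjusted p below 0.05. LTP1, the most abundant epidermal marker, was at -0.01 in the pnet2_b line against the double mutant and turned to 0.30 under quantile normalization. Summed vascular markers were 80.1 to 104, 76.8 to 87.3, 63.5 to 64.6 and 72.0 to 79.7 FPKM in the 4 genotypes, where of 6 genes SUC2 fell in the pnet2_a line and IRX3 rose in the pnet2_b line. Of 3 root genes 2 were listed at 0 in every library, while SCR was present in every library at 7.12 to 10.5 FPKM. Flower or seed markers were near absent, as the 4 genes summed to at most 3.80 FPKM.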

How the data were processed

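Messenger RNA of Arabidopsis leaves was measured in 12 libraries, 3 for each of 4 genotypes, which the labels name. The authors deposited 1 table of FPKM for 32833 genes. Reads were aligned with HISAT2 2.0.4 to TAIR10, per the submitters' processing notes, and libraries were strand-specific per the labels' protocol. The counting program, the annotation release, the treatment of reads that match several genes and the read depth are unknown, being not given in the sources used here. The deposited FPKM showed no steps of whole reads, so no counting test or counting interval could be made. This was read from pairs of libraries of 1 genotype, where 749 to 955 genes lay above 0 and under 0.8 FPKM in both. No 0.01 bin of the log2 ratio between the paired libraries held over 1.79% of those genes.

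The 19110 genes that reached 1 FPKM in 3 or more libraries were tested in R 4.3.3 with limma 3.58.1 on log2(FPKM + 1), in 1 fit over all 12 libraries with 8 residual degrees of freedom and an intensity trend. P-values were adjusted by Benjamini-Hochberg over all genes at 0.05, and fold changes of low genes are understated by the pseudocount of 1. The fit was tested on simulated data with known changes. Shares of FPKM were compared by two-sided exact permutation tests over libraries (18 tests, adjusted together) with SciPy 1.17.1, and tables and figures used Python 3.11.15, NumPy 2.4.6, pandas 2.3.3 and matplotlib 3.10.9. Gene names, coordinates and sequences are those of RefSeq for TAIR10.1, and motifs were searched on both strands. All members are accounted for, and of each other list up to 4 genes with the smallest adjusted p in either pnet2 line against crwn1;4 were named, besides CRWN1, CRWN4, rbcL and the genes said to be chosen later. The members, lists and tests were chosen with earlier results of these data known. As alternatives, the fit was repeated with pseudocounts of 0.1 and 5, without a filter, with a filter of 5 FPKM, with TPM, median-ratio and quantile scaling, with no trend, array weights, a replicate block, a fit on the 2 genotypes compared, and without each library in turn.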

Additional observations from a re-analysis of the deposited data

How the results depend on the processing

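The count of genes past the threshold, falls and rises together, held within 1.5 times under every alternative for the pnet2_b line against crwn1;4 and against WT, at 21 to 24 and 22 to 24 when 1 library was left out. A held count can hide a change of direction: against crwn1;4, quantile normalization gave fewer falls and more rises in that line, as given above. For crwn1;4 against WT (2 genes), it was 1 with no filter, median-ratio scaling, array weights or the replicate block, 4 with quantile normalization, 0 with no trend or in the fit on 2 genotypes, and 1 to 3 without 1 library. For the pnet2_a line against crwn1;4 (17), it was 10 with no trend and 9 to 16 without 1 library. Against WT (15, of which 14 falls and 1 rise) it was 9 with quantile normalization, of which 6 falls and 3 rises, and 10 to 14 without 1 library. For the pnet2_b against the pnet2_a line (7), it was 11 with median-ratio scaling, 0 with no trend and 2 to 4 without 1 library. Genes called under all alternatives were 0 of 2 for crwn1;4 against WT, 5 of 17 and 14 of 25 for the pnet2_a and pnet2_b lines against crwn1;4, 5 of 15 and 12 of 24 against WT, and 0 of 7 between the lines. RBCS1A and RBCS3B could not be among them, since quantile normalization sets their differences to 0 by construction. RBCS3B lost its calls in the lines against crwn1;4 and WT in that setting alone. So did RBCS1A, except in the pnet2_a line against crwn1;4.

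With median-ratio scaling the median log2 change of the 32 genes moved to -0.27 and -0.53 in the pnet2_a and pnet2_b lines against crwn1;4, to -0.23 and -0.52 against WT, and to -0.27 between the lines. With quantile normalization it moved to -0.0232 and -0.11 in the 2 lines against WT, and with TPM to -0.21 in the pnet2_b line against WT. Signs turned with quantile normalization in the pnet2_a line against crwn1;4 for RCA (0.082) and RBCS2B (0.15), and in the pnet2_b line against crwn1;4 for RCA (0.25), RBCS2B (0.39), RBCS1B (0.21), GAPA (0.18) and LTP1 (0.30). Against WT they turned for GAPB in the pnet2_a line (0.004) and for RCA (0.35), RBCS2B (0.23) and FBA2 (0.059) in the pnet2_b line, and median-ratio scaling turned GLDP2 to -0.027 in the pnet2_b line against crwn1;4. The cause was not tested. Signs that turned where the change passed in neither fit are not listed.

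Libraries with the same replicate number showed little shared deviation (18 pairs, r = -0.0842 to 0.0678, 0 over 0.1), so no pairing by number was seen. With 3 libraries per genotype this check cannot show that no libraries shared a batch. With a replicate block the counts were 1 for crwn1;4 against WT, 16 and 25 for the lines against crwn1;4, 15 and 24 against WT and 5 between the lines. Single genes were followed through the alternatives for all 32 and the other named genes in the 2 lines against crwn1;4, and elsewhere only where they had passed. Fits without 1 library assume that the remaining libraries share 1 spread. Depth is unknown, so counting error cannot be given.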
